A study of Homo sapiens with 12 samples.

Results

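The genes described here are the 3 peroxisome proliferator-activated receptors (PPARG, PPARA and PPARD) and 4 CCAAT/enhancer-binding proteins (CEBPA, CEBPB, CEBPD and CEBPG). They were taken by gene symbol from a count table of 48162 genes, and each symbol matched 1 row. All 7 were among the 16733 genes that passed the filter on low counts. The table comes from spheroids of Caco-2, an established line from a human colorectal adenocarcinoma whose cells take on features of absorptive enterocytes. Every group was grown the same way, from cells at passage 26 kept in Matrigel for 5 days in DMEM with 20% fetal bovine serum, antibiotics and nonessential amino acids, without a change of medium. After that, an exposure of 4 h followed, in control to the carrier fluid alone and otherwise to the antifolate methotrexate, to the iron-binding protein lactoferrin, or to methotrexate with lactoferrin, here called both agents. Each of the 4 groups has 3 libraries of bulk RNA, and the labels give no dose. All come from 1 cell line, and nothing in the labels tells whether a group's 3 libraries stem from independent cultures. The p-values then measure only how these samples scatter, which may be a technical spread.

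PPARs are nuclear receptors that bind fatty acids and their derivatives, pair with a retinoid X receptor and switch on genes of lipid handling. PPARG drives fat cell formation and fat storage and is also found in colonic epithelium. PPARA serves fatty acid oxidation in liver and intestine, and PPARD is broadly expressed. C/EBPs are leucine zipper proteins that bind DNA as dimers with each other or with relatives. CEBPB and CEBPD act early in fat cell formation and in inflammatory and acute phase responses, and CEBPA acts later, together with PPARG. CEBPG lacks a strong activating region of its own and takes part in amino acid and oxidative stress responses as a dimer partner.

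In the build of the table, hg19, PPARG (ENSG00000132170) lies on chromosome 3 at 12328867 to 12475855, PPARA (ENSG00000186951) on chromosome 22 at 46546424 to 46639653 and PPARD (ENSG00000112033) on chromosome 6 at 35310335 to 35395968, all on the plus strand. CEBPA (ENSG00000245848) lies on chromosome 19 at 33790840 to 33793470 on the minus strand, and CEBPG (ENSG00000153879) on the same chromosome at 33864236 to 33873591 on the plus strand. CEBPB (ENSG00000172216) lies on chromosome 20 at 48807376 to 48809212 on the plus strand, and the locus of CEBPD (ENSG00000221869) is given with its values. The table assigns exon lengths of 2029 bases to PPARG, 10048 to PPARA, 3774 to PPARD, 2631 to CEBPA, 1837 to CEBPB, 2178 to CEBPD and 4108 to CEBPG. CEBPA is overlapped by the pseudogene AC008738.1 over 2578 bases on the same strand and by the antisense genes CTD-2540B15.11 and CTD-2540B15.7 over 1235 and 662 bases. All 3 had 0 counts in the 12 libraries, and the sources used here do not give how fragments shared between overlapping genes were counted, so the level of CEBPA is uncertain.

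RefSeq promoter sequences on GRCh38.p14 matched 6 of the 7 genes, with 14 annotated transcription starts. The windows are shown for the 3 genes whose counts rose most with methotrexate on the log2 scale. The count table cannot tell a gene's starts apart. Each window is the 250 bases before a start, and capitals mark matches, on either strand, to the motifs searched. The C/EBP site was taken as TTNCNNAA. A nuclear receptor half-site was taken as AGGTCA. The spaced pair read by a PPAR with a retinoid X receptor was taken as the same letters repeated after any 1 base. A lone AGGTCA match is not that pair. The CCAAT box was searched as such, the GC box as GGGCGG, the TATA element as TATAAA, and the core of the cyclic AMP element as TGACG. Matches of different motifs were allowed to overlap. The first PPARG window is that of the most upstream start, chr3:12287118-12287367 on the plus strand, and the other is that of the most downstream start, chr3:12351167-12351416 on the plus strand. The CEBPA window is chr19:33302535-33302784 on the minus strand, and the CEBPB window is that of the upstream of its starts, chr20:50190333-50190582 on the plus strand.
PPARG upstream start: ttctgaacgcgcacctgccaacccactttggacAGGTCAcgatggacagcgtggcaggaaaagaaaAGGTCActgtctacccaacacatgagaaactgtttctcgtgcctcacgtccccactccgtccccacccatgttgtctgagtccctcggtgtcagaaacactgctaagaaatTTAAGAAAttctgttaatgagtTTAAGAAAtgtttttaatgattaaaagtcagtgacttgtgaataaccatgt
PPARG downstream start: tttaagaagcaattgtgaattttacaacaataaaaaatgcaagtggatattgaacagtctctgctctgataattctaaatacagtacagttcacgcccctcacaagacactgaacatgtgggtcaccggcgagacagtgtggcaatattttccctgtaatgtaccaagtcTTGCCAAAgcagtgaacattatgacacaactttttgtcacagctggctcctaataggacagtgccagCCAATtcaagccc
CEBPA: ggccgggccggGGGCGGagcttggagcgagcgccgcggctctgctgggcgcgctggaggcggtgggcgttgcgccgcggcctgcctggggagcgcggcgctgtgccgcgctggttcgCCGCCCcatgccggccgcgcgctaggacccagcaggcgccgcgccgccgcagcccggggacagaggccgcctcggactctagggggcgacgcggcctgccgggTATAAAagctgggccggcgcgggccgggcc
CEBPB: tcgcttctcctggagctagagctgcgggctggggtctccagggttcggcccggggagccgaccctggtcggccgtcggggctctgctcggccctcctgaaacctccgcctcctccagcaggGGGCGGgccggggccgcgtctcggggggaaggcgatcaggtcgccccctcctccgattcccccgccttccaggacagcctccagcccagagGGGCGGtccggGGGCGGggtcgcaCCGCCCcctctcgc
The PPARG upstream window held a C/EBP match at position -73 and another at -51 from the start, both on the minus strand. It also held AGGTCA matches at -217 and -184, which do not form the spaced pair. The downstream window held a C/EBP match at -80 and CCAAT at -13. CEBPA had TATAAA at -30 and a pair of GC boxes, and the upstream CEBPB window had 4 GC boxes. The window of the downstream CEBPB start, not shown, held 5 GC boxes, TATAAA at -29, TGACG at -57 and CCAAT at -245. Of all 35116 promoter windows of the same length, 33.2% held the C/EBP match, 12.1% AGGTCA, 32% CCAAT, 42.6% the GC box, 10.7% TATAAA, 21.2% TGACG and 0.0171% the spaced pair. The spaced pair was found in none of the 14 windows of these genes, which says only that those letters are not in them. The PPARG windows had 41.6 to 57.2% G and C and those of the other 5 genes 70.8 to 87.2%, against a median of 58% over all windows.

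The methotrexate libraries stood apart from the other 9 in ways that bear on every comparison with them. They held 47459811 to 60591667 counts, against 18714054 to 23859094 in the others, and took 6.67 to 7.54% of their counts from mitochondrial genes, against 2 to 3.34% in control. The summed level of 18 adipocyte markers, in CPM (counts per 1e+06 counts) scaled by edgeR's trimmed mean of M values (TMM), was 20300 to 21100 in these libraries. It was 142 to 147 in control, and the ranges for lactoferrin and for both agents were 130 to 143 and 126 to 146. Of that list, TUSC5 was at 0 in control, and LEP, CIDEA and TUSC5 were at 0 with lactoferrin and with both agents. The fibroblast and stromal list stood at 10100 to 11600 CPM against 932 to 1040 in control, where DPT and MFAP5 were at 0. The list of Caco-2 epithelial markers stood at 3290 to 3670 CPM against 6980 to 7450, with no member at 0 in any group. The endothelial list stood at 37.4 to 40.9 against 26.9 to 35.9 CPM, and the smooth muscle and pericyte list at 154 to 231 against 169 to 238. In these lists edgeR called 6 of 8 and 4 of 5 tested genes higher, and 1 and 0 lower (adjusted p under 0.05). Of all tested genes, 35.4% were called higher and 29.1% lower. The macrophage and leukocyte list was alike in sum, at 46.1 to 54.4 against 47.7 to 52.6 CPM. Of its 5 tested genes, however, 2 were called higher and 3 lower. The 5 erythroid genes were at or near 0 throughout. The part of these marker lists in the results on PPARs and C/EBPs was not tested. In bulk RNA, fewer cells of a type and less RNA per cell cannot be told apart. Because so many genes differed, each value below is also given, where it matters, under scaling on 49 epithelial genes, which moved the median log2 change of all genes from 0.03 to 0.99.

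**Figure D1:**
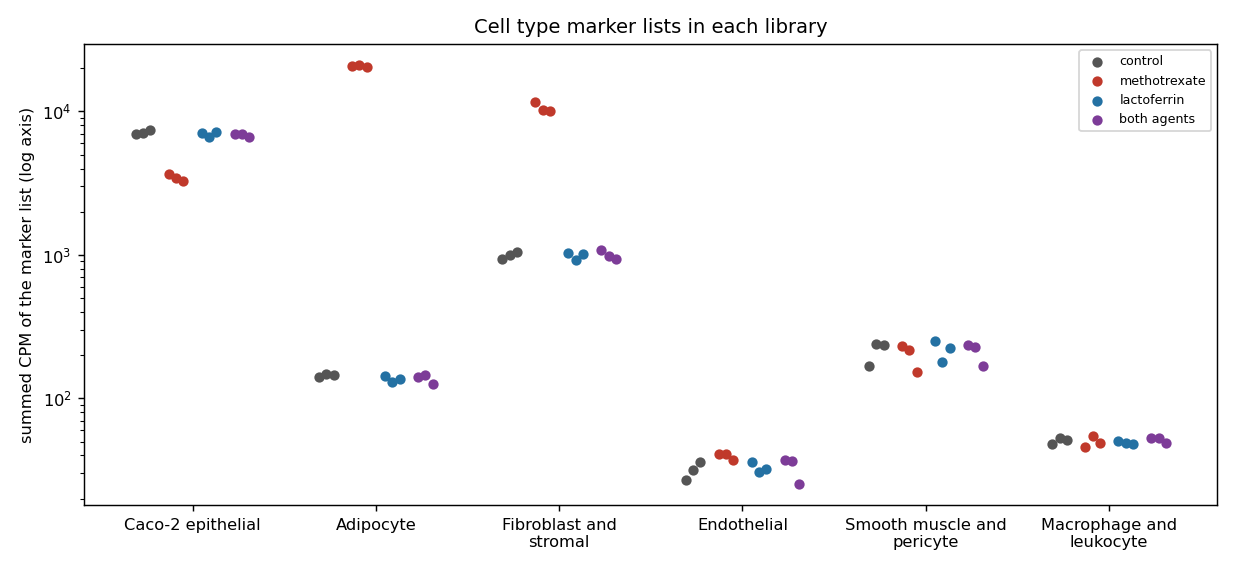
Summed level of each marker list in CPM (log axis) in the 12 libraries, 1 point per library, coloured by group (the erythroid list is not drawn). The adipocyte list is at 20300 to 21100 CPM in the 3 methotrexate libraries and between 126 and 147 CPM in the other 9, and the Caco-2 epithelial list is lower in the methotrexate libraries.

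PPARG, the receptor of fat storage, had the largest change of the receptors. Its level was 35.9, 34.6 and 34.9 CPM in control libraries 1, 2 and 3, 173, 135 and 144 with methotrexate, 35.8, 34.8 and 33.1 with lactoferrin, and 37.8, 32.4 and 38.5 with both agents. The 3 methotrexate libraries lay far above the other 9, whose levels overlapped closely. Over those 9 libraries, the highest PPARG level was 1.19 times the lowest, and the lowest methotrexate library was 3.5 times the highest of the 9. Against control, PPARG rose 4.29-fold with methotrexate, a log2 change of 2.10 ± 0.11 (SE) with a Benjamini-Hochberg adjusted p of 8.26e-11 by edgeR's quasi-likelihood test. On the epithelial scaling the log2 change was 3.06.

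PPARD, the broadly expressed receptor, was also higher with methotrexate. Its levels were 22.8, 24.8 and 26.2 CPM in control, 48.3, 45.1 and 53.3 with methotrexate, 27.1, 23.7 and 28.6 with lactoferrin, and 26.4, 27.8 and 22.6 with both agents. No methotrexate library overlapped any other. PPARD rose 1.99-fold, a log2 change of 0.99 ± 0.12 (SE) with an adjusted p of 1.7e-06 in the same test, and 1.96 on the epithelial scaling.

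PPARA, the receptor of fatty acid oxidation, gave 68, 66 and 61.4 CPM in control, 62.5, 59.7 and 67.9 with methotrexate, 68.2, 67.7 and 66.3 with lactoferrin, and 66, 53 and 78.7 with both agents. The groups overlapped, and the widest spread was among the libraries with both agents. The log2 change with methotrexate was -0.04 ± 0.12 (SE), with a 95% interval of -0.29 to 0.21 and an adjusted p of 0.786. This value depends on the scaling, since on the epithelial scaling PPARA was called higher by 0.93 with an adjusted p of 5.23e-06.

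Among the C/EBPs, CEBPB moved most. Its levels were 48.9, 77.4 and 66.2 CPM in control, 297, 264 and 315 with methotrexate, 58.9, 79.1 and 87.5 with lactoferrin, and 70.3, 71 and 73.8 with both agents. The lowest methotrexate library was 3.02 times the highest of the other 9. CEBPB rose 4.55-fold against control, a log2 change of 2.19 ± 0.16 (SE) with an adjusted p of 6.22e-09, and 3.15 on the epithelial scaling.

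CEBPA had the fewest counts of the 7, between 63 and 272 in the 9 libraries without methotrexate alone and between 582 and 730 in the methotrexate libraries. Its levels were 6.95, 4.38 and 2.66 CPM in control, 14.6, 14.2 and 11.6 with methotrexate, 3.41, 12.4 and 11.8 with lactoferrin, and 4.8, 5.34 and 12.4 with both agents. The methotrexate libraries lay above the control libraries, and the lowest of them was 0.93 times the highest of the 9. Their range took in lactoferrin libraries 2 and 3, most of that group, and library 3 with both agents. CEBPA rose 2.9-fold against control, a log2 change of 1.54 ± 0.42 (SE) with an adjusted p of 0.00477, and 2.49 on the epithelial scaling.

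CEBPA was also the most uneven between replicates. Its coefficient of variation was 46.3% in control, 12.3% with methotrexate, 54.5% with lactoferrin and 56.5% with both agents. Over the 9 libraries without methotrexate alone its highest level was 4.66 times its lowest, with a coefficient of variation of 55.9%, whereas counting alone gives at most 12.6% at its depth. The other 6 genes varied by 5.63 to 16.2% over the same libraries. High and low libraries of CEBPA occurred together within the lactoferrin group and within the group with both agents, and the labels give nothing that separates them.

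CEBPD lies on chromosome 8 at 48649471 to 48651648 on the minus strand in hg19. It gave 26.3, 35.4 and 33.4 CPM in control, 33.4, 37.6 and 27.7 with methotrexate, 33.4, 39.5 and 45 with lactoferrin, and 33.3, 32.1 and 33.6 with both agents. All 4 groups overlapped. The log2 change with methotrexate was 0.05 ± 0.14 (SE), with a 95% interval of -0.25 to 0.35 and an adjusted p of 0.758, and on the epithelial scaling CEBPD was called higher by 1.01 with an adjusted p of 2.99e-06. CEBPB and CEBPD had their lowest level in the same library, control 1, and their highest among the 9 libraries without methotrexate alone in lactoferrin 3.

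CEBPG was the only one of the 7 called lower with methotrexate, and that direction depends on the scaling. Its levels were 137, 124 and 120 CPM in control, 97.5, 84 and 67.7 with methotrexate, 119, 135 and 120 with lactoferrin, and 124, 116 and 149 with both agents. The methotrexate libraries lay below all others. The log2 change was -0.61 ± 0.13 (SE) with an adjusted p of 0.000602. On the epithelial scaling it was 0.34 with an adjusted p of 0.0209, a call in the other direction, smaller than the shift of 0.96 in the median of all genes.

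**Figure D2:**
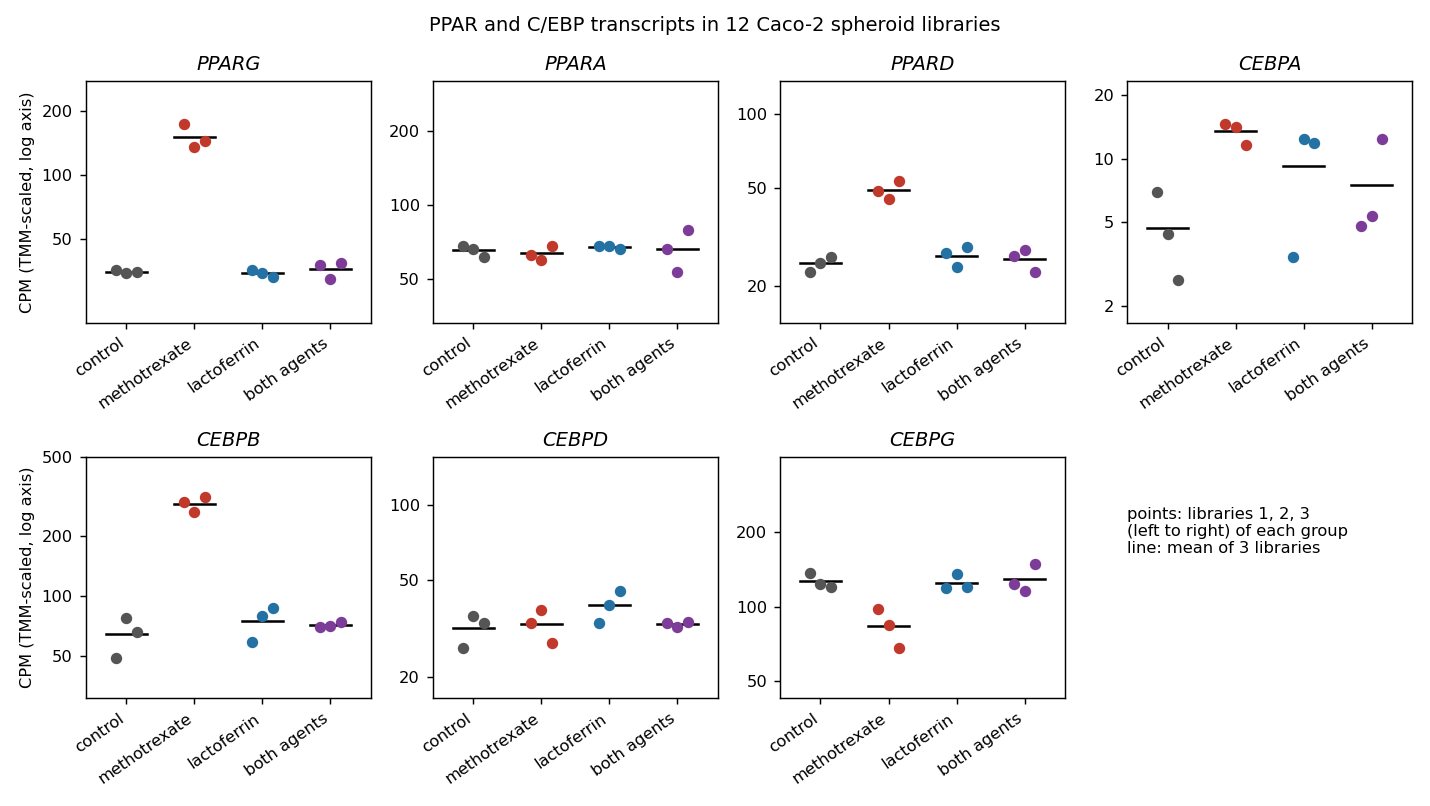
Level of each of the 7 genes in TMM-scaled CPM (log axis, its range set for each gene) in every library, 1 point per library, with a line at the mean of the 3 libraries. PPARG, PPARD and CEBPB are higher in all 3 methotrexate libraries than in the other 9, CEBPG is lower, and CEBPA is scattered in the groups with lactoferrin.

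In all, 5 of the 7 genes were called with methotrexate against control, 4 higher and 1 lower, where 64.5% of all tested genes were called, 35.4% higher and 29.1% lower. The methotrexate and control libraries did not overlap for these 5 genes, which held for 71.5% of all tested genes. On the epithelial scaling all 7 were called higher, where 77% of all genes were called higher and 0.424% lower. A call in this comparison was therefore common, and the size of the change is the more telling value. In absolute log2 change CEBPB stood above 87.3% of all tested genes, PPARG above 86.7%, CEBPA above 82.7%, PPARD above 70.1% and CEBPG above 50.9%. PPARA and CEBPD, which were not called, stood above only 3.63% and 4.91%.

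Lactoferrin alone moved none of the 7 past the test, and none of the 16733 genes, 0%, was called by edgeR's quasi-likelihood test in that comparison, although 628 genes had an unadjusted p under 0.05 and DESeq2 called 1. The log2 differences were -0.02 for PPARG, 0.05 for PPARA, 0.11 for PPARD, 0.23 for CEBPB and -0.03 for CEBPG. For CEBPD the difference was 0.31 with a 95% interval of 0.01 to 0.61, and for CEBPA it was 0.99 with an interval of 0.06 to 1.91, with adjusted p-values of 1. For none of the 7 were the lactoferrin libraries free of overlap with control, a separation that 10.1% of all genes showed.

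With both agents, the 7 genes stood at control levels within these errors. None was called against control, where 0.0299% of genes (5 genes) were, and 591 genes had an unadjusted p under 0.05. The libraries overlapped for all 7, and were apart for 7.84% of all genes. The 95% interval of the log2 difference was -0.18 to 0.28 for PPARG, -0.17 to 0.49 for CEBPB and -0.23 to 1.63 for CEBPA, so for CEBPA a difference of the size seen with methotrexate alone lies inside the interval. Against lactoferrin alone none of the 7 was called either, where 0.0179% of genes (3 genes) were, and 564 had an unadjusted p under 0.05. Again the libraries overlapped for all 7, and were apart for 6.89% of all genes. CEBPA gave -0.29 ± 0.42 (SE) there and CEBPD -0.25 ± 0.14 (SE).

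Against methotrexate alone, both agents left PPARG lower by a log2 change of -2.05 ± 0.11 (SE), with an adjusted p of 1.12e-10. CEBPB was lower, at -2.03 ± 0.16 (SE) and 1.54e-08, and so was PPARD, at -0.93 ± 0.12 (SE) and 3.37e-06. CEBPG was higher, at 0.65 ± 0.13 (SE) and 0.000396, but gave -0.25 and an adjusted p of 0.0798 on the epithelial scaling. CEBPA gave -0.84 ± 0.41 (SE) with an adjusted p of 0.0836, and was called on the epithelial scaling at -1.73 with an adjusted p of 0.000966. Leaving out library 3 with both agents, the highest of that group for CEBPA, brought that gene to -1.40 with an adjusted p of 0.00761. These are 4 of the 7 genes called, 1 higher and 3 lower, where 63.2% of all genes were called, 28.8% higher and 34.4% lower. The libraries did not overlap for those 4 genes, as for 66.5% of all genes. With epithelial scaling, all but CEBPG were called lower, where 75.5% of all genes were called, 0.693% higher and 74.8% lower. This comparison and the one with control share the methotrexate libraries, so they are not separate evidence.

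The interaction is the difference between the log2 change with methotrexate in the presence of lactoferrin and that in its absence. It was called for 5 of the 7 genes, where 46.7% of all genes were called, 20.6% higher and 26.1% lower. PPARG, PPARD, CEBPA and CEBPB had a smaller methotrexate change with lactoferrin present. CEBPG gave -0.61 without lactoferrin and 0.06 ± 0.13 (SE) with it. Under epithelial scaling 6 of the 7, all but CEBPG, were called lower, where 66.9% of all genes were called, 0.263% higher and 66.7% lower. Since the methotrexate libraries enter here too, their depth and marker levels move with this result as with the others.

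**Figure D3:**
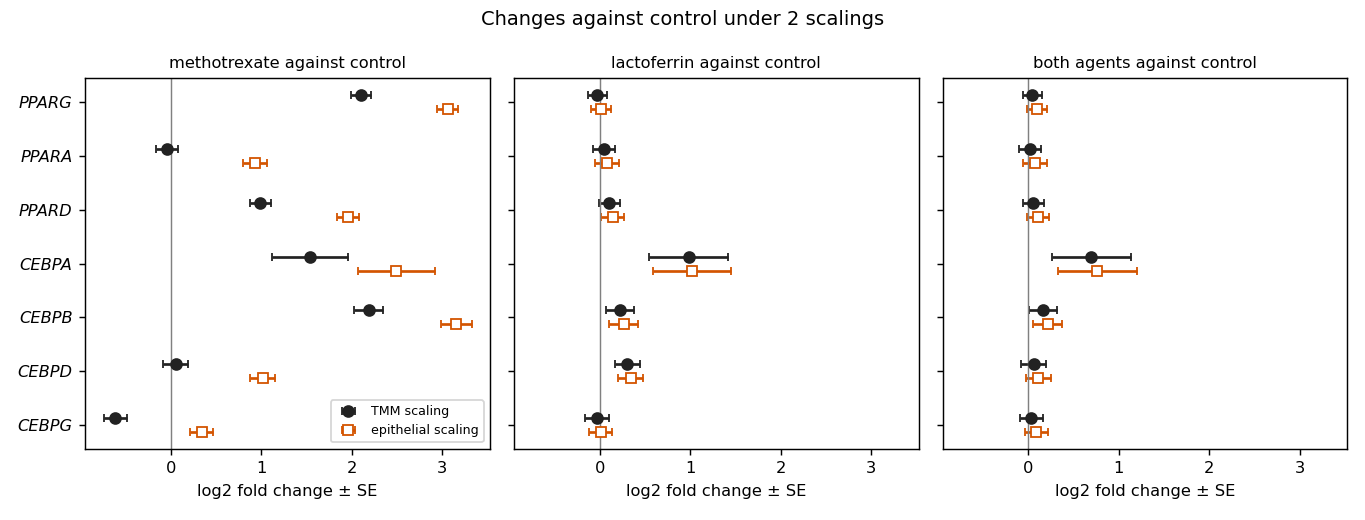
Log2 fold change of each gene against control with its standard error as bars, for methotrexate, lactoferrin and both agents, under TMM scaling (filled circles) and epithelial scaling (open squares). PPARG, PPARD, CEBPA and CEBPB lie above 0 with methotrexate under both scalings, CEBPG changes side between them, and CEBPA has the widest bars.

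Compared per length, as CPM per kilobase of the exon length in the table, CEBPB and CEBPG had the highest control levels, 34.9 ± 7.82 and 30.9 ± 2.17 (SD, n = 3), and their libraries overlapped. They were followed by PPARG at 17.3 ± 0.335, CEBPD at 14.5 ± 2.2, and PPARD and PPARA at 6.52 ± 0.463 and 6.48 ± 0.337, which overlapped. CEBPA was lowest at 1.77 ± 0.82. With methotrexate the order became CEBPB at 159 ± 14.1, PPARG at 74.2 ± 9.65, CEBPG at 20.2 ± 3.63, CEBPD at 15.1 ± 2.29, PPARD at 13 ± 1.09, PPARA at 6.31 ± 0.414 and CEBPA at 5.11 ± 0.629, with overlap between CEBPG and CEBPD and between CEBPD and PPARD. With lactoferrin and with both agents, CEBPB was again highest in mean, at 40.9 and 39, PPARD and PPARA again overlapped, and CEBPA was again lowest, at 3.49 and 2.86.

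The makeup of each family is a ratio within a library and does not depend on the scaling. PPARG made up 57.1 ± 0.804% (SD, n = 3) of the 3 PPARs per length in control, 79.3 ± 2.25% with methotrexate, 55.4 ± 1.7% with lactoferrin and 57.2 ± 1.22% with both agents. The share of PPARA went from 21.4 ± 1.05% in control to 6.79 ± 0.719% with methotrexate and that of PPARD from 21.5 ± 1.61% to 13.9 ± 1.54%, although the level of PPARD was higher. CEBPB made up 42.2 ± 5.79% of the 4 C/EBPs in control and 79.7 ± 3.52% with methotrexate, and CEBPG went from 38 ± 5.91% to 10.2 ± 1.86%. The share of CEBPD went from 17.6 ± 1.36% to 7.62 ± 1.53%, and that of CEBPA was 2.21 ± 1.19% and 2.57 ± 0.385%. Apart from CEBPA, no control library overlapped a methotrexate library in these shares, and the exact permutation test, two-sided, gave the smallest p that 3 against 3 allows, 0.1, or 0.35 after adjustment over 21 such comparisons. The design cannot reach 0.05.

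**Figure D4:**
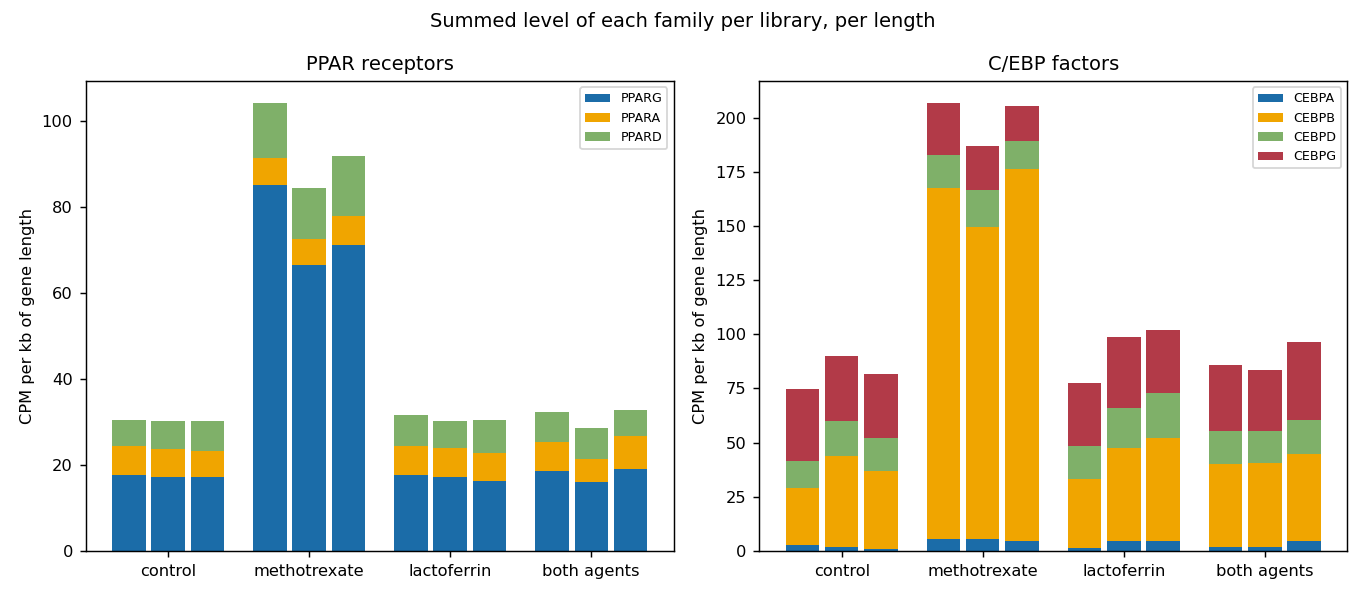
Levels per length in CPM per kilobase of the PPARs and of the C/EBPs, stacked by gene, with 1 bar per library. The PPAR total averages 30.3 in control and 93.5 with methotrexate, and the C/EBP total 82.2 and 199, with PPARG and CEBPB the largest parts of the methotrexate bars.

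The PPARs work with retinoid X receptors and coregulators, and of 20 such genes 6 were called higher and 7 lower with methotrexate, with a median log2 change of -0.15 against 0.03 over all tested genes. These are 30% and 35% of the list, near the 35.4% and 29.1% of all tested genes. Epithelial scaling gave 17 called higher (85%, against 77% of all genes) and 0 lower. RXRA, the usual partner, gave 263 ± 17.2 CPM in control and 214 ± 31.1 with methotrexate (SD, n = 3), a log2 change of -0.30 with an adjusted p of 0.0607, and 0.66 on the epithelial scaling with an adjusted p of 5.63e-05. LPIN1, a phosphatidate phosphatase that also coactivates PPARs, rose from 22.3 ± 2.94 to 505 ± 9.16 CPM, a log2 change of 4.50. CITED2, a coactivator, rose by 2.30 on the log2 scale. PPARGC1A, the coactivator of mitochondrial and oxidative genes, rose by 5.49 from only 5 counts in the 3 control libraries together. Its relative PPARGC1B fell from 66.9 to 33.9 CPM, and the coactivators NCOA1 and MED1 gave log2 changes of -0.49 and -0.61. None of these 3 was called lower under epithelial scaling, where PPARGC1B gave -0.02 and NCOA1 and MED1 were called higher at 0.48 and 0.35.

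The list of PPAR targets of fatty acid oxidation also holds genes of other functions, among them PLIN2, ANGPTL4, FADS2, TXNIP, CYP1A1, MBL2 and IMPA2. It was chosen with earlier results of these data known, so its shares are descriptions and not tests. Of its 37 tested genes, 27 were called higher and 6 lower with methotrexate, with a median log2 change of 1.39. These are 73% and 16.2% of the list, against 35.4% and 29.1% of all tested genes, and with epithelial scaling 31 were called higher, 83.8% against 77%. PDK4, which holds back pyruvate oxidation, rose from 0.699 to 668 CPM. ACSL1, an acyl-CoA synthetase, rose from 24.1 to 1910 CPM and PLIN2, a lipid droplet coat protein, from 74 to 1800. ANGPTL4, an inhibitor of lipoprotein lipase, rose from 2 to 171 CPM, and CPT1A, which passes fatty acids into mitochondria, from 13.4 to 24.5. Others of the list went the other way. FABP1, the fatty acid binding protein of liver and enterocytes, fell from 178 to 89.1 CPM, and IMPA2, an inositol phosphatase, from 116 to 60.1. Epithelial scaling gave FABP1 and IMPA2 log2 changes of -0.03 and 0.02, and no gene of the list was called lower.

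All 29 PPARG target genes of fat storage were called higher with methotrexate, with a median log2 change of 6.19, against 35.4% of all tested genes and a median of 0.03. GPD1, which makes glycerol phosphate for triglyceride, rose from 12.1 to 2920 CPM and CIDEC, which enlarges lipid droplets, from 16.3 to 1200. FABP4, a fatty acid carrier of fat cells, rose from 0.619 ± 1 CPM (SD, n = 3) to 4930. The 3 control libraries together held 39 counts of it. PLIN1, which coats the lipid droplets of fat cells, rose from 8 counts in those libraries (0.123 CPM) to 831 CPM. ADIPOQ, the hormone adiponectin, rose from 5 counts in them to 1560 CPM. The list shares 13 genes with the 18 adipocyte markers, all of which were called higher in the same comparison with a median of 7.77. The list's count and the cell type's markers are therefore in large part the same measurement. As with the other lists, this list was chosen with earlier results of these data known, so its share beside that of all genes is not a test.

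Of 20 tested relatives and partners of the C/EBPs, 9 were called higher and 5 lower, with a median log2 change of 0.05. These are 45% and 25% of the list, near the 35.4% and 29.1% of all tested genes, and without methotrexate library 2 the count of lower genes was 3. With epithelial scaling 17 were called higher (85%, against 77%) and 0 lower. The leucine zipper proteins JUN and ATF3 rose from 13.3 to 227 CPM and from 2.77 to 56.7 CPM. TRIB1, which directs CEBPA protein to degradation, rose from 23.9 to 96.8, and DDIT3, a stress-induced C/EBP relative that blocks its dimer partners, from 5.07 to 18.3. TRIB3, a stress-induced relative of TRIB1, gave 80.7 and 64.3 CPM, a log2 change of -0.33 with an adjusted p of 0.124, and was called higher on the epithelial scaling at 0.62 with an adjusted p of 0.00224. RPS6KA3, a kinase, BATF2 and CEBPZ were called lower at -0.81, -1.04 and -0.58 on the log2 scale, and gave 0.16, -0.08 and 0.39 on the epithelial scaling.

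The liver and acute phase targets of C/EBPs were split. Of 27 tested, 13 were called higher and 13 lower with methotrexate, each 48.1% of the list against 35.4% and 29.1% of all tested genes, with a median of -0.55. TF, the iron carrier transferrin, rose from 6.93 to 2340 CPM, PCK1, an enzyme of glucose and glycerol synthesis, from 3.69 to 129, and CCL2, a chemokine, from 4 counts in the 3 control libraries together to 17.6 CPM. The fibrinogen chains FGG and FGA fell from 2070 to 919 CPM and from 299 to 119, and AHSG, the plasma protein fetuin-A, from 1830 to 914. With epithelial scaling 14 were called higher and 3 lower, 51.9% and 11.1% against 77% and 0.424% of all genes. There FGG and FGA were called lower still at -0.20 and -0.37, and AHSG gave -0.04.

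Among 31 tested regulators of fat cell differentiation, 16 were called higher and 10 lower, with a median of 0.83. These are 51.6% and 32.3% of the list, against 35.4% and 29.1% of all tested genes. The list was not split by whether a gene promotes or restrains fat cell formation. STAT5A rose from 4.27 to 147 CPM, KLF15 from 2.06 to 38.7 and EBF3 from 0.49 to 13.9, all transcription factors. KLF5 fell from 349 to 169 CPM, E2F1 from 105 to 52.3 and GATA3 from 17.8 to 10.3. Epithelial scaling put those 3 at -0.09, -0.06 and 0.19, and 23 genes of the list were called higher, 74.2% against 77% of all genes, and 0 lower. In lactoferrin against control and in both agents against control, no gene of the 6 lists was called, beside 0% and 0.0299% of all genes.

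**Figure D5:**
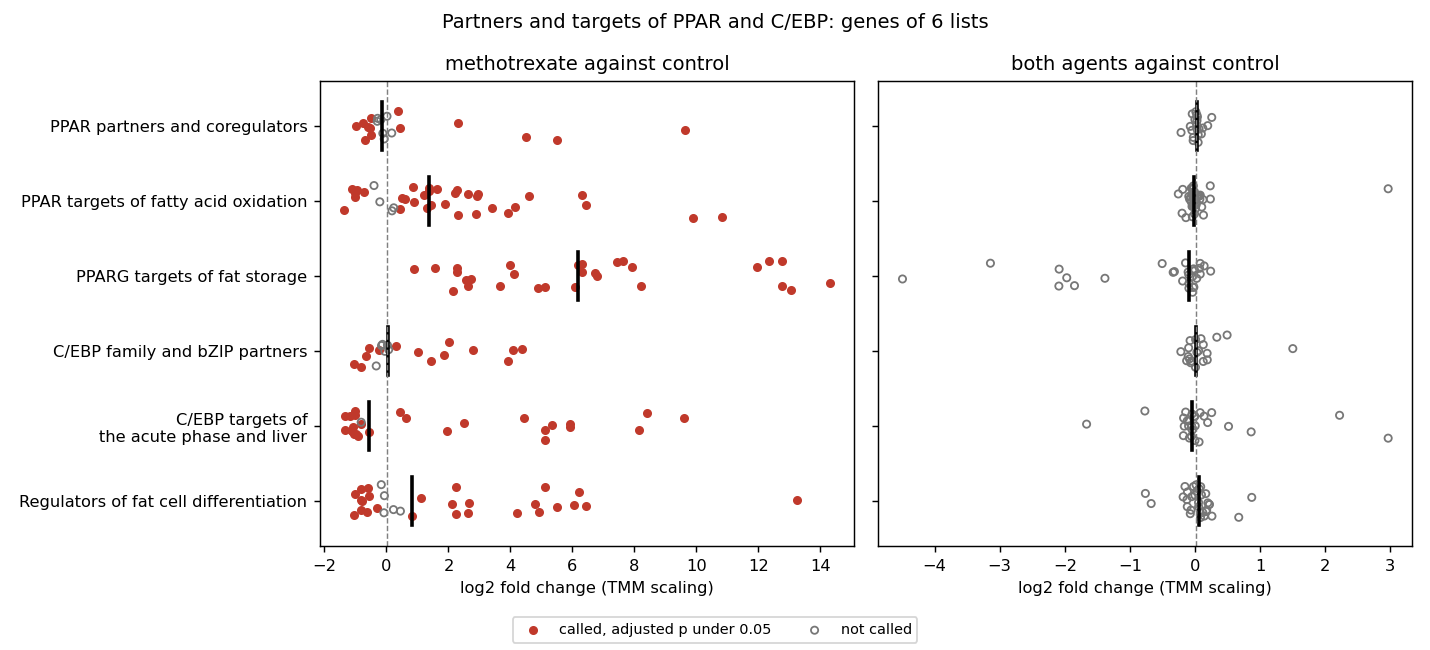
Log2 fold changes (TMM) of the tested genes of the 6 lists for methotrexate and for both agents against control, 1 point per gene, filled where called, with the list median as a bar. The right panel has no called gene, and its 12 genes beyond a log2 change of 1 had at most 144 counts in the 6 libraries compared.

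The genes whose levels ran most like each member's were ranked by Pearson's r of log2 CPM over 11835 genes. Over the 12 libraries, which share the step at methotrexate, PPARG ran close to GPAM at 0.998 and ST3GAL1 at 0.997. PPARD ran close to FITM2 and CSF1, both at 0.991, and CEBPB closest to ZCCHC24 at 0.99, CSAD at 0.989 and C1orf52 at 0.988. CEBPG ran closest to YEATS4 at 0.989 and to BAZ1B and CCNJ at 0.986. The highest values were 0.954 for CEBPA with MICU2, 0.913 for PPARA with TMEM168 and 0.876 for CEBPD with MAZ. Over the 9 libraries without methotrexate alone, the closest gene of each member was another, such as CHMP5 at 0.965 for PPARG and LYRM5 at 0.984 for CEBPA. For PPARA, ZNF211 came first at 0.958, and TMEM168 followed at 0.956. With so few libraries and so many genes searched, these values are descriptions of the libraries.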

How the data were processed

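Bulk RNA from 12 samples of Caco-2 spheroids was measured, 3 in each of 4 groups. The authors deposited integer counts per gene. Per the submitters' processing notes the tools were CASAVA, STAR and DESeq2 with build hg19, and their versions, the annotation, the counting program, strand and whether a count is a read or a pair are not stated in any source at hand. Library totals ran from 18714054 to 60591667 counts. Counting error at this depth is small for 6 of the 7 genes; no molecular tags are mentioned, so counts need not be independent molecules. Standard errors were derived from the log2 change and the F statistic of the quasi-likelihood test, and 95% intervals from those errors. Both include the scatter between libraries.

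Analysis used edgeR 4.0.16 in R 4.3.3. After filterByExpr and TMM scaling, a model with a mean for each group was fitted to the 12 samples, and the quasi-likelihood test was applied to 6 contrasts: each agent and both agents against control, both agents against each alone, and the interaction. Calls are at a Benjamini-Hochberg adjusted p under 0.05, over all 16733 genes. The model had 8 residual degrees of freedom and a biological coefficient of variation of 12.9%. Epithelial scaling set library factors from the median ratio of 49 epithelial genes. Log2 values used for ranking likeness had a prior count of 2 and a mean of at least 1.

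The members and the gene lists were chosen with earlier results of these data known. All 7 members were to be named, with 3 genes per list and direction of lowest p and 12 genes always given. A few genes that this rule names are left out of the text, though they stay in every fit and count. The pipeline was tested on simulated data. Alternatives were relative log expression factors, epithelial scaling, DESeq2 1.42.0, limma-voom (limma 3.58.1), no filter, a replicate term, the compared groups alone, the submitters' threshold (over 2-fold, adjusted p under 0.01), thinned methotrexate libraries, no methotrexate libraries and leaving out each library. Promoter sequences came from RefSeq on GRCh38.p14. No sample was left out, no replicates were identical, and no protein sequences were used here.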

Additional observations from a re-analysis of the deposited data

Results flagged for a closer look

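The log2 change with methotrexate differed between spheroids without and with lactoferrin for 5 of the 7 genes, by edgeR's test of the interaction itself. In that test 46.7% of all genes were called, 20.6% higher and 26.1% lower. The interaction is the log2 change of methotrexate with lactoferrin present minus that without it. It was -2.03 ± 0.15 (SE) for PPARG, with an adjusted p of 2.97e-08, -2.25 ± 0.22 for CEBPB, with 6.46e-07, and -1.04 ± 0.16 for PPARD, with 9.76e-05. For CEBPA it was -1.82 ± 0.60 with an adjusted p of 0.0201. That call was lost without control 3, without lactoferrin 2 or 3 and without library 1 with both agents, where the adjusted p was 0.0554, 0.0574, 0.0585 and 0.0551. For CEBPG it was 0.67 ± 0.18 with an adjusted p of 0.00682, but -0.27 with an adjusted p of 0.204 on the epithelial scaling. PPARA and CEBPD, at 0.01 and -0.30, were not called, and on the epithelial scaling they gave -0.94 and -1.25.

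The contrast uses all 4 groups, and only the methotrexate libraries stood apart from the others in depth, mitochondrial share and adipocyte markers. The part of these values in the interaction was not tested.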

How the results depend on the processing

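PPARG, PPARD and CEBPB kept their direction and call with methotrexate against control under the alternatives run, except PPARD under the submitters' threshold. CEBPA kept its direction and call there too, at log2 changes of 1.25 to 2.49 over 21 alternatives. Epithelial scaling reversed 7 values: PPARA and CEBPG with methotrexate against control (0.93 and 0.34), PPARA, CEBPD and CEBPG in both agents against methotrexate (-0.86, -0.90 and -0.25) and PPARA and CEBPG in the interaction (-0.94 and -0.27). The submitters' threshold left 3 members called with methotrexate, 2 in both agents against methotrexate and 3 in the interaction, and of all genes 4525, 4400 and 3296, and 2 in both agents against control. Without the filter, 32929 genes were tested and 1 member, CEBPA, was called with lactoferrin (0.99, adjusted p 0.00215), with 17 of all genes, and 38 and 19 were called in both agents against control and against lactoferrin. DESeq2 called 1, 15 and 7 genes in those 3 comparisons. In both agents against control and against lactoferrin, limma-voom, the compared groups alone and the fit without methotrexate libraries each called 0 genes. Leaving out 1 library gave 5 to 5 members called with methotrexate, 4 to 5 in both agents against methotrexate and in the interaction, and 0 to 0 in the other 3. Of all genes it gave 9984 to 11481 with methotrexate, 0 to 0 with lactoferrin, 0 to 8 for both agents against control, 9781 to 10895 against methotrexate, 0 to 5 against lactoferrin, and 6996 to 8216 for the interaction. The counts of both agents against control moved to 3, 0, 3 and 8 without control 1, control 2 and libraries 1 and 3 with both agents, and those against lactoferrin to 0 and 5 without lactoferrin 3 and library 3 with both agents. CEBPA in both agents against methotrexate was called under limma-voom (adjusted p 0.043), without the filter (4.25e-06), with the compared groups alone (0.0403) and without lactoferrin 1 (0.0349). Replicate numbers were shared between groups, but deviations of same-numbered libraries correlated at -0.216 to 0.118, over 0.1 in 2 of 18 pairs, and 3 of 12 libraries correlated best with their own number, so the numbers were not taken as pairs. A term for the replicate number (replicate block) left 3 genes called in both agents against control and changed no call of the 7 genes. Depth limits CEBPA most, with 63 counts in its lowest library.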

Other observations

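Some partners, targets and regulators of the PPARs fell outside the naming rule and were picked after their values were seen. RXRG, a retinoid X receptor partner of PPARs, had 0 counts in the 3 control libraries, the 3 with lactoferrin and the 3 with both agents, and a methotrexate level of 3.5 ± 0.18 CPM (SD, n = 3; 496 counts), at least 80.5-fold higher than 3 counts over the control group. EBF1, an early fat cell factor, had 0 counts in the same 9 libraries and a methotrexate level of 42.9 ± 0.994 CPM, at least 992-fold higher by the same floor. RXRB, the broadly expressed retinoid X receptor, gave 44.5 CPM in control and 50.1 with methotrexate, a log2 change of 0.17 with an adjusted p of 0.318 by edgeR, and was called higher on the epithelial scaling at 1.13 with an adjusted p of 6.1e-07. UCP1, a PPAR target of brown fat, had 6 counts in control and 2244 with methotrexate, and 3 and 2 counts with lactoferrin and with both agents. ZNF423, which acts upstream of PPARG in fat cell precursors, had 13 counts in control, 836 with methotrexate, 5 with lactoferrin and 14 with both agents. As for the other genes, the adipocyte marker list was higher in the same 3 libraries, and its part in these values was not tested.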
